A study of Mus musculus with 12 samples.

Results

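The genes described here are the 6 that the tables name Fcgr1, Fcgr3, Fcgr4, Fcgr2b, Fcer1g and Fcgrt, out of 25749 genes listed. They were chosen by name, as the cell-surface receptors that bind immunoglobulin G (IgG), the chain some of them signal through, and the receptor that carries IgG through cells. Total RNA was sequenced from brain tissue of 12 mice in 3 groups of 4: mice with a cerebrovascular injury that received anti-LFA1/VLA4 continuously (antibody-treated), injured mice without it, and uninjured mice. All were male B6 mice aged 13 weeks, with no transgene or deletion named in the labels. Tissue was taken on day 20 after saline perfusion, as a cube with edges of 3 mm. LFA1 and VLA4 are integrins with which leukocytes attach to the vessel wall. The labels do not say whether mice of the other groups received a control antibody. The labels describe a cube of injured tissue for every sample and do not say where the cube of an uninjured mouse lay.

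Fcγ receptors let cells of the innate immune system sense IgG that has bound its target. In the mouse, Fcgr1 encodes the high-affinity receptor and Fcgr3 and Fcgr4 encode activating receptors of lower affinity, and all of them need the Fcer1g chain, which carries the activating tyrosine motif (ITAM) that recruits the kinase Syk. Fcgr2b encodes the inhibitory receptor, whose own cytoplasmic motif (ITIM) recruits the phosphatase SHIP-1. In the brain these receptors are known mainly from microglia, border macrophages and infiltrating myeloid cells. Fcgrt encodes the heavy chain of FcRn, which pairs with β2-microglobulin, binds IgG and albumin in endosomes and is known from endothelium as well as from myeloid cells.

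Of the 6 genes, 4 lie within a short stretch of mouse chromosome 1 (GRCm38). Fcgr2b occupies chr1:170958617-170976547 on the minus strand with 15 annotated exons, Fcgr4 chr1:171018920-171029761 on the plus strand with 5, Fcgr3 chr1:171051174-171064935 on the minus strand with 11, and Fcer1g chr1:171229572-171234365 on the minus strand with 8. Fcgr1 lies at chr3:96282909-96293969 on the minus strand with 9 exons. Fcgrt lies at chr7:45092990-45103851 on the minus strand with 15 exons. The identifiers are ENSMUSG00000026656 for Fcgr2b, ENSMUSG00000059089 for Fcgr4, ENSMUSG00000059498 for Fcgr3, ENSMUSG00000058715 for Fcer1g, ENSMUSG00000015947 for Fcgr1 and ENSMUSG00000003420 for Fcgrt. Fcgr2b and Fcgrt each overlap an annotated antisense gene, by 3175 and 5331 bases. The sources do not say whether reads were counted by strand, and without it reads of a gene and its antisense partner cannot be told apart.

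The promoters of the activating receptors are shown because they share a sequence that the choice of genes did not use. The RefSeq table (GRCm38.p6), which covers 250 bases before to 50 bases after a start site, held all 6 genes. GAGGAA, the core of sites bound by the myeloid transcription factor PU.1, was searched on both strands. It stood in the windows of Fcgr1, Fcgr3 and Fcgr4, in each case on the strand opposite to the gene, where it reads TTCCTC. The stretches below run along the gene, with those bases in capitals.
Fcgr1, chr3:96293992-96294051, minus strand: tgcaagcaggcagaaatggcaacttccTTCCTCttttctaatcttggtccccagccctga
Fcgr3, chr1:171059377-171059436, minus strand: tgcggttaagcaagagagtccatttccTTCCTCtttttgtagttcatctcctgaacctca
Fcgr4, chr1:171018877-171018936, plus strand: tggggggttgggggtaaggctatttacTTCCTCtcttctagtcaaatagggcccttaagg

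The match began 55 bases before the start site in Fcgr1, 6 or 15 bases before it in Fcgr3, which has 2 annotated start sites in that table, and 22 bases before it in Fcgr4. These letters were not in the windows of Fcgr2b, Fcer1g or Fcgrt. Across all RefSeq promoters of the same length, 28.3% of 32851 windows held GAGGAA. The match is therefore only a description of these promoters, and binding was not tested. The interferon-response element TTCNNNGAA, known as GAS, was found only in the Fcgr1 window among the 6 genes, 109 to 101 bases before the start, while 8.3% of all windows held it. It does not overlap the other match and is in capitals in this stretch.
Fcgr1, chr3:96294059-96294089, minus strand: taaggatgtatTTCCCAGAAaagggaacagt

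Exon reads per library ranged from 13330379 to 13917157 in antibody-treated mice, from 15507462 to 16121577 in injured mice and from 15159988 to 15781229 in uninjured mice. Reads of the mitochondrial genome made up 10.04 ± 0.945% of exon reads in antibody-treated, 6.84 ± 1.51% in injured and 11.4 ± 0.761% in uninjured libraries (SD, n = 4 each). Defining markers of brain were present: 6 neuronal markers summed to between 4169 and 5335 TPM, a measure of transcript level per unit of length, in antibody-treated, 4486 and 5312 in injured and 4945 and 5592 in uninjured libraries. The labels give no batch.

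Several marker lists moved with the groups, as summed TPM per library. A list of 12 homeostatic microglia genes ranged from 530.2 to 544.1 TPM in antibody-treated, 521.8 to 542.3 in injured and 434.5 to 460.4 in uninjured libraries. The 10 listed markers of monocytes and infiltrating macrophages summed to 51.44 to 53.99, 35.9 to 43.21 and 23.5 to 29.87 TPM in the same order, and 8 border macrophage markers to 25.64 to 31.76, 21.09 to 22.54 and 11.91 to 14.04 TPM. The monocyte and border macrophage sums did not overlap between groups and were highest in antibody-treated libraries, while the microglia sums overlapped between both groups with injury. Most of the monocyte sum came from Fn1 (means 18.4, 15.14 and 12.27 TPM in the same order) and S100a4 (18.79, 14.92 and 6.951). In that list Ccr2 averaged 0.6482, 0.2119 and 0.177 TPM, and Itga4 2.565, 2.341 and 2.815 TPM. The 10 neutrophil markers summed to 46.97 to 66.32 TPM in antibody-treated, against 14.85 to 17.67 in injured and 7.742 to 10.75 in uninjured libraries, with the defining marker Ly6g at 0 in every library. Most of the antibody-treated sum came from S100a8 (means 20.16, 2.704 and 1.796 TPM in the same order) and S100a9 (21.79, 3.11 and 2.136). Csf3r averaged 7.926, 8.636 and 4.695 TPM, highest in injured libraries. The other listed markers, at up to 2.956 TPM (Ngp), averaged highest in antibody-treated libraries. Summed markers of muscle and of bone and skin were also highest in antibody-treated libraries. All 8 listed skeletal muscle markers summed to 258.5 to 386.3 TPM in antibody-treated, 178.2 to 240.7 in injured and 132.2 to 183.1 in uninjured libraries, most of it outside the antibody-treated group from Pvalb, which interneurons also express. Without Pvalb the other 7 summed to 133.3 to 188 TPM in antibody-treated, against 20.31 to 25.78 in injured and 13.95 to 20.1 in uninjured libraries. The muscle creatine kinase Ckm averaged 11.36 ± 1.008 TPM in antibody-treated brain (SD, n = 4) and had 1 read in all injured and 3 in all uninjured libraries. The 6 bone and skin markers summed to 7.394 to 18.14 TPM in antibody-treated, 1.511 to 5.561 in injured and 0.7374 to 1.148 in uninjured libraries, with the bone protein gene Bglap at 99, 22 and 0 reads in these groups. Bglap averaged 9.762, 2.093 and 0 TPM and Ibsp 1.279, 0.1971 and 0.2109 TPM in the same order. Col2a1 (0.6153, 0.9672 and 0.5691 TPM) and Krt5 (0.1558, 0.2185 and 0.09347 TPM) averaged highest in injured libraries. Krt14 had 1, 1 and 0 reads and Sost 1, 1 and 2. The 6 choroid plexus markers summed to 2319 to 3506, 1679 to 2210 and 1850 to 2399 TPM, and all 6 rose in antibody-treated against injured brain (median log2 fold change 0.67 in edgeR), whereas 1 rose in antibody-treated and 3 fell in injured brain against uninjured brain. Of all tested genes 10.9%, 6.3% and 11% did so in the same order. The part of these cells and tissues in the results below was not tested, and in bulk tissue fewer cells of a type and less RNA per cell cannot be told apart.

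Per transcript length, the signalling chain was the most abundant of the 6 genes and Fcgr3 the most abundant receptor on the cell surface. Fcer1g averaged 67.51 ± 5.863 TPM in antibody-treated, 51.49 ± 3.833 in injured and 32.57 ± 2.498 in uninjured brain (SD, n = 4 each). Fcgr3 averaged 35.91 ± 1.259, 33.23 ± 3.368 and 21.12 ± 0.9642 TPM, and Fcgrt 33.61 ± 4.552, 36.82 ± 3.86 and 26.11 ± 2.641 TPM in these groups. The ranges of Fcgr3 and Fcgrt overlapped in each group. Within a library, Fcgrt exceeded Fcgr3 in every uninjured mouse, while in each group with injury the order differed between libraries. Fcgr2b averaged 7.829 ± 0.5839, 5.467 ± 0.5635 and 3.035 ± 0.6268 TPM, and Fcgr1 6.338 ± 1.147, 5.4 ± 0.3753 and 3.985 ± 0.7189 TPM. Fcgr1 lay above Fcgr2b in the uninjured group, where the libraries did not overlap, whereas both overlapped in the injured and antibody-treated groups. Fcgr4 was the scarcest, at 2.705 ± 0.1735, 1.98 ± 0.8905 and 0.5399 ± 0.1253 TPM.

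Between groups each gene was compared in normalised CPM, its exon reads scaled to the adjusted size of the library.

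**Figure D1:**
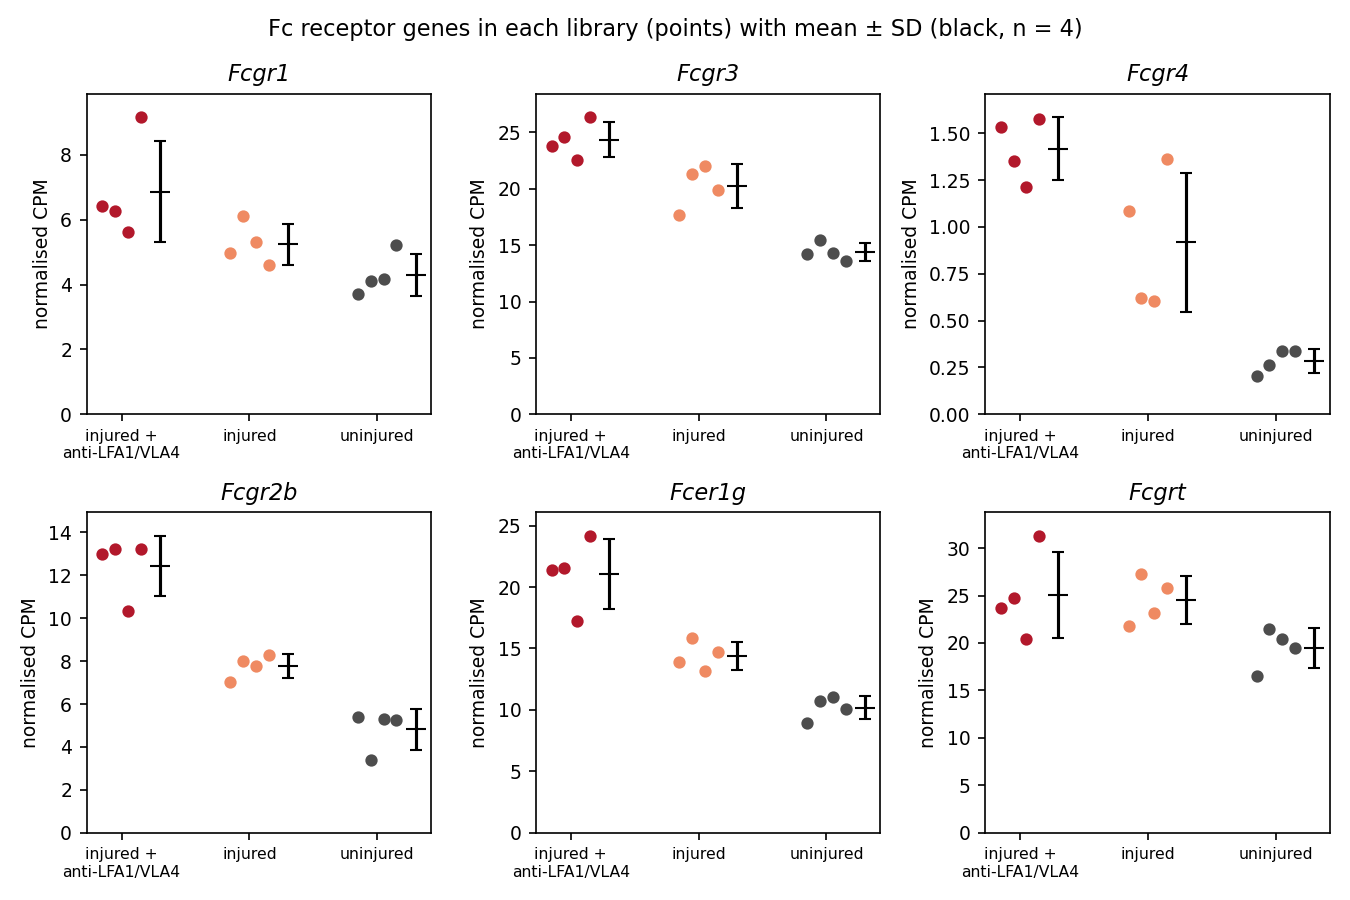
Normalised CPM of each of the 6 genes (vertical axis, linear from 0) in antibody-treated, injured and uninjured mice. Points are libraries and black marks give the mean ± SD of 4. For Fcgr2b the antibody-treated libraries sit between 10.34 and 13.23, above the injured ones at 7.005 to 8.285, while for Fcgrt the injured libraries at 21.84 to 27.32 lie within the antibody-treated range of 20.46 to 31.3.

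All 6 genes were tested with edgeR's quasi-likelihood test among 14771 genes that passed a filter on low counts, with Benjamini-Hochberg adjustment over these genes and a threshold of 0.05. In injured against uninjured brain, 4 of the 6 rose (Fcgr3, Fcgr4, Fcgr2b and Fcer1g) and none fell, where 11.9% of all tested genes rose and 11% fell. In antibody-treated against uninjured brain, 5 of the 6 rose, all except Fcgrt, and none fell, where 6.3% of all tested genes rose and 3.22% fell. In antibody-treated against injured brain, 3 of the 6 rose (Fcgr3, Fcgr2b and Fcer1g) and none fell, where 10.9% of all tested genes rose and 10.7% fell. All libraries of the first group lay above all of the second for 5 of the 6 genes in injured against uninjured brain (17.4% of all tested genes), for 5 in antibody-treated against uninjured brain (9.01%) and for 3 in antibody-treated against injured brain (10.6%). The comparisons share libraries and are not independent of each other. Fcgr4 passed the filter only through the groups where it was high, reaching its minimum of 0.647 CPM in 4 of 4 antibody-treated, 2 of 4 injured and 0 of 4 uninjured libraries, so its difference is no support for a count. The other 5 genes reached it in every library.

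**Figure D2:**
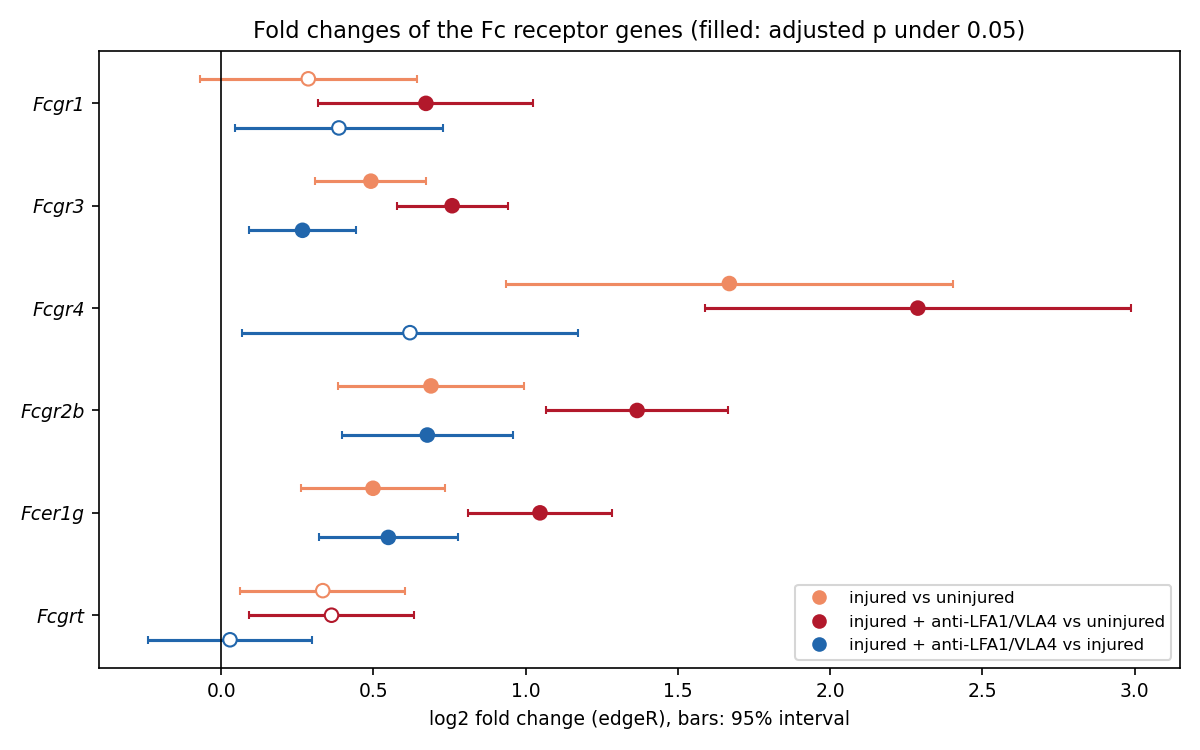
Log2 fold change of each gene (horizontal axis) in 3 comparisons, from the edgeR fit, with 95% intervals as bars. Filled symbols mark an adjusted p under 0.05. Fcgr2b and Fcer1g are filled in every comparison and Fcgrt in none.

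Fcgr3, the activating receptor of lower affinity, rose in both groups with injury. It had 23.84, 24.62, 22.6 and 26.35 normalised CPM in antibody-treated mice, 17.64, 21.29, 22.04 and 19.94 in injured mice and 14.18, 15.45, 14.29 and 13.62 in uninjured mice. No library of one group lay within the range of another. Against uninjured brain the level was 1.692-fold in antibody-treated mice (log2 fold change 0.76, SE 0.08, edgeR adjusted p = 7.605e-05) and 1.406-fold in injured mice (0.49, SE 0.08, edgeR adjusted p = 0.003437). The step between antibody-treated and injured brain was small, 1.203-fold (log2 fold change 0.27, SE 0.08, edgeR adjusted p = 0.03494). That last call ended under 7 of 13 other analyses, including TPM values, in which the libraries overlapped (log2 difference 0.12, limma adjusted p = 0.292). It also ended when injured replicate 1 or 4 or antibody-treated replicate 1, 2 or 4 was left out, with log2 fold changes from 0.23 to 0.28 in those fits and an edgeR adjusted p of up to 0.0682.

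Fcgr1, the high-affinity receptor, rose in antibody-treated against uninjured mice. Its libraries held 6.416, 6.261, 5.632 and 9.157 normalised CPM in antibody-treated mice, 4.967, 6.1, 5.3 and 4.616 in injured mice and 3.697, 4.106, 4.161 and 5.234 in uninjured mice. Replicate 4 was the highest of both the antibody-treated and the uninjured group, and the injured libraries overlapped both of the other groups. The level was 1.594-fold in antibody-treated against uninjured brain (log2 fold change 0.67, SE 0.16, edgeR adjusted p = 0.02077). Without uninjured replicate 1 or uninjured replicate 2 this call was lost, at edgeR adjusted p = 0.0679 and 0.0602, and also with only the compared groups in the fit (adjusted p = 0.0565). Injured against uninjured brain gave a log2 fold change of 0.29 (95% interval -0.07 to 0.64, edgeR adjusted p = 0.212). Antibody-treated against injured brain gave 0.39 (95% interval 0.04 to 0.73, edgeR adjusted p = 0.09825), which was 0.22 without antibody-treated replicate 4 and passed at 0.48 without antibody-treated replicate 3 (edgeR adjusted p = 0.0422).

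Fcgr4, the activating receptor related to human FCGR3A and known from monocytes and neutrophils, rested on few reads. It had 21, 19, 17 and 21 exon reads in antibody-treated libraries, 17, 10, 10 and 23 in injured libraries and 3, 4, 5 and 5 in uninjured libraries. Every library with injury therefore held more reads than any uninjured library. Scaled to depth, the mean level was 1.418 ± 0.168 CPM in antibody-treated, 0.9171 ± 0.3699 in injured and 0.2834 ± 0.06487 in uninjured brain. The fitted fold was 4.885 in antibody-treated against uninjured mice (log2 fold change 2.29, SE 0.32, edgeR adjusted p = 0.00052) and 3.179 in injured against uninjured mice (1.67, SE 0.34, edgeR adjusted p = 0.007475). No uninjured library reached the minimum of the filter on low counts, so both differences are a description. The neutrophil and monocyte sums given above were highest in antibody-treated libraries, and their part in the Fcgr4 values was not tested. Antibody-treated against injured brain gave a log2 fold change of 0.62 (95% interval 0.07 to 1.17) that missed the threshold (edgeR adjusted p = 0.09968). It passed without injured replicate 4 (0.89, edgeR adjusted p = 0.0359).

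The inhibitory receptor Fcgr2b differed between all groups, with the highest level in antibody-treated brain. Its libraries held 12.98, 13.23, 10.34 and 13.21 normalised CPM in antibody-treated mice, 7.005, 8.029, 7.769 and 8.285 in injured mice and 5.378, 3.389, 5.302 and 5.234 in uninjured mice. The 3 groups did not overlap, although antibody-treated replicate 3 and uninjured replicate 2 each stood below the rest of their group. Against uninjured brain the level was 2.577-fold in antibody-treated mice (log2 fold change 1.37, SE 0.14, edgeR adjusted p = 2.992e-05) and 1.612-fold in injured mice (0.69, SE 0.14, edgeR adjusted p = 0.007654). Antibody-treated against injured brain gave 1.599-fold (log2 fold change 0.68, SE 0.13, edgeR adjusted p = 0.003447). Each of these calls held with any library of the compared groups left out. The call of antibody-treated against uninjured brain held in all 13 other analyses, and the other two calls in 12 of 13. They were lost in an analysis chosen after seeing the data, which counted only the reads across splice junctions: 139 in antibody-treated, 138 in injured and 63 in uninjured libraries. From these the log2 fold change was 0.92 in injured against uninjured brain (edgeR adjusted p = 0.108) and 0.55 in antibody-treated against injured brain (edgeR adjusted p = 0.156), at a depth where 48 genes in all rose in injured brain. In antibody-treated against uninjured brain it was 1.47 and passed (edgeR adjusted p = 0.0032). Junction reads made up 24.07 ± 1.299% of all exon reads in antibody-treated, 28.95 ± 1.535% in injured and 25.77 ± 0.4976% in uninjured libraries. Reads matching a single place made up 97.77% of Fcgr2b and 97.73% of Fcgr3 reads, genes that share near-identical exons, and every read of the other 4 genes. Border macrophages and B cells are known to express this receptor. The border macrophage sums given above ranked antibody-treated over injured over uninjured. In that list Stab1 (means 7.096, 7.451 and 4.612 TPM in that order) and Cd163 (0.8934, 0.6272 and 0.6975) did not, while the other means did. The B cell and plasma cell markers summed to 4.626 to 5.66 TPM in antibody-treated, 2.898 to 4.362 in injured and 3.465 to 3.913 in uninjured libraries. Among them Cd79a averaged 1.377, 0.6514 and 0.412 TPM, Sdc1 1.596, 1.449 and 1.468, and Tnfrsf17 0.6958, 0.853 and 0.9291. The part of these cells in the Fcgr2b values was not tested.

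Fcer1g, the ITAM chain shared by the activating receptors, rose in the same 3 comparisons. Its libraries held 21.36, 21.56, 17.25 and 24.17 normalised CPM in antibody-treated mice, 13.88, 15.87, 13.19 and 14.68 in injured mice and 8.941, 10.75, 11.01 and 10.06 in uninjured mice. The groups did not overlap. The level was 2.067-fold in antibody-treated against uninjured brain (log2 fold change 1.05, SE 0.11, edgeR adjusted p = 4.011e-05), 1.413-fold in injured against uninjured brain (0.50, SE 0.11, edgeR adjusted p = 0.0103) and 1.463-fold in antibody-treated against injured brain (0.55, SE 0.11, edgeR adjusted p = 0.003447). Removing a smooth trend of GC content and exon length from each library reduced these log2 fold changes to 0.60, 0.29 and 0.31. All 3 remained past the threshold (edgeR adjusted p = 8.3e-05, 0.0252 and 0.00939). From splice junction reads alone, 536 in antibody-treated, 402 in injured and 247 in uninjured libraries, the log2 fold changes were 1.47, 0.50 and 0.97 in the same comparisons, and that of injured against uninjured brain did not pass (edgeR adjusted p = 0.173).

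Relative to the homeostatic microglia sum and to Csf1r, Fcer1g averaged highest in antibody-treated and lowest in uninjured brain, but relative to Tyrobp it did not. The TPM of Fcer1g relative to the sum of the 12 homeostatic microglia genes was 0.1258 ± 0.01178 in antibody-treated, 0.09655 ± 0.008107 in injured and 0.07305 ± 0.004786 in uninjured brain (SD, n = 4 each). Relative to Csf1r, a gene of that sum, it was 1.183 ± 0.1739, 0.7813 ± 0.07534 and 0.6288 ± 0.04216 in these groups. The TPM of Fcer1g relative to Tyrobp, the other ITAM adaptor chain of microglia, was 0.5049 ± 0.05246, 0.4374 ± 0.02363 and 0.533 ± 0.02014. Relative to the summed TPM of the receptors it serves, Fcgr1, Fcgr3 and Fcgr4, Fcer1g stood at 1.501 ± 0.09706 in antibody-treated, 1.273 ± 0.1198 in injured and 1.27 ± 0.09026 in uninjured brain. These ratios are descriptions and were not tested.

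The balance of activating to inhibitory transcripts was compared through TPM ratios within each library. Together the 4 Fcγ receptors summed to 52.79 ± 2.306 TPM in antibody-treated, 46.08 ± 3.883 in injured and 28.68 ± 0.9958 in uninjured brain. Fcgr3 made up 68.07 ± 1.761% of that sum in antibody-treated, 72.05 ± 2.073% in injured and 73.68 ± 3.485% in uninjured brain. Fcgr2b made up 14.84 ± 1.013%, 11.86 ± 0.5482% and 10.59 ± 2.201%, and Fcgr4 5.128 ± 0.3417%, 4.312 ± 1.884% and 1.879 ± 0.4164% in these groups. Fcgr1 held 11.96 ± 1.686%, 11.78 ± 1.216% and 13.85 ± 2.035%.

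**Figure D3:**
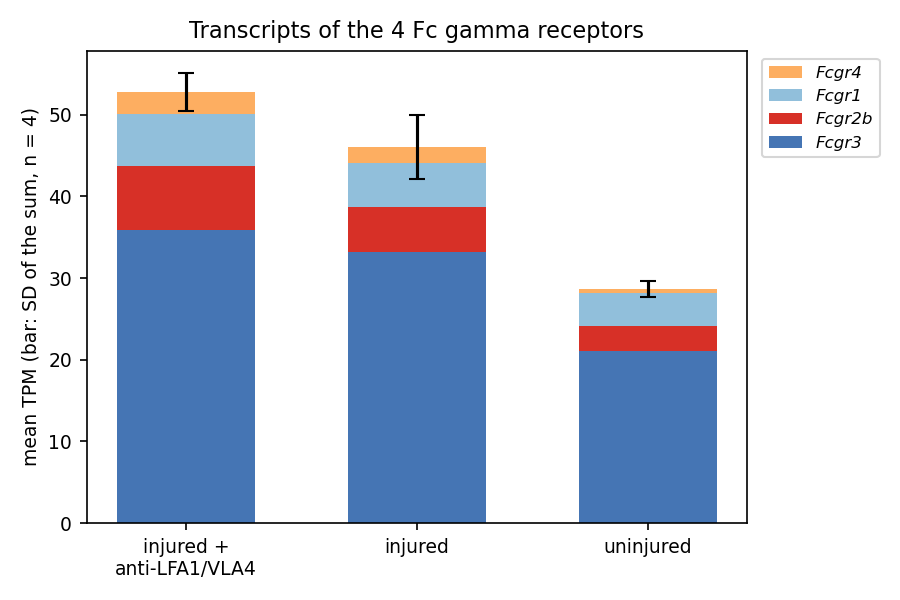
Mean TPM of Fcgr3, Fcgr2b, Fcgr1 and Fcgr4, stacked, in antibody-treated, injured and uninjured mice, with the SD of the summed TPM over 4 libraries as a bar. The stacks reach 52.79, 46.08 and 28.68 TPM in that order, and Fcgr3 is the largest segment in each.

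The ratio of Fcgr3 to Fcgr2b ranged from 4.297 to 5.113 in antibody-treated libraries, from 5.63 to 6.636 in injured libraries and from 6.087 to 10.66 in uninjured libraries. Antibody-treated libraries all lay below both other groups, with a log2 difference of -0.63 from uninjured and -0.40 from injured brain. In each of these 2 comparisons an exact two-sided permutation test gave p = 0.02857, the smallest that 4 against 4 allows, and an adjusted p = 0.06429 over the 9 ratios tested. The ratio of Fcgr4 to Fcgr2b ranged from 0.3099 to 0.3619 in antibody-treated, from 0.2352 to 0.4984 in injured and from 0.1138 to 0.2333 in uninjured libraries. Its log2 difference from uninjured brain was 0.96 in antibody-treated and 0.93 in injured mice, again with an adjusted p = 0.06429 by exact permutation. With 3 to 5 Fcgr4 reads per uninjured library, all under the minimum of the low-count filter, these differences are a description. The ratio of Fcgr1 to Fcgr2b averaged 0.8114 ± 0.146, 0.9963 ± 0.1268 and 1.355 ± 0.3438 in these groups (SD, n = 4 each). None of the 9 ratio comparisons passed after adjustment. The smallest p the design can give was reached by 4, among them both Fcgr4 comparisons with uninjured brain.

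**Figure D4:**
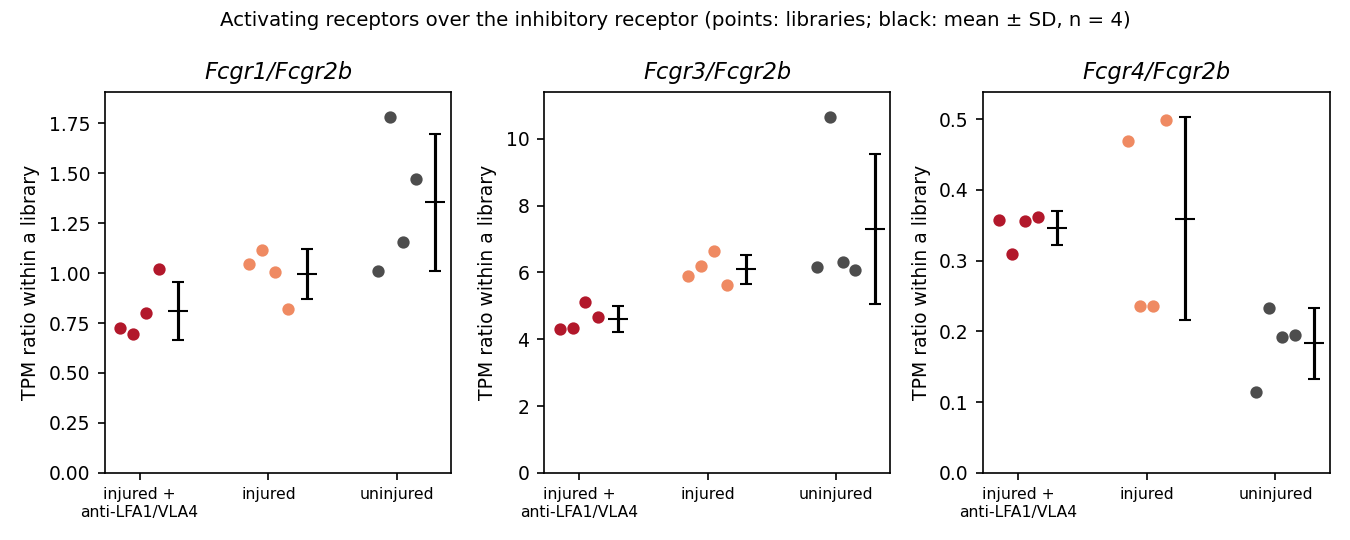
TPM of Fcgr1, Fcgr3 and Fcgr4 divided by TPM of Fcgr2b in the same library (vertical axes, linear from 0), for antibody-treated, injured and uninjured mice. Points are libraries and black marks the mean ± SD of 4. For Fcgr3 the antibody-treated points at 4.297 to 5.113 lie under all others.

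Fcgrt, the FcRn heavy chain, did not pass the test in any comparison. It had 23.7, 24.69, 20.46 and 31.3 normalised CPM in antibody-treated mice, 21.84, 27.32, 23.13 and 25.8 in injured mice and 16.54, 21.44, 20.4 and 19.46 in uninjured mice. The injured libraries all lay above the uninjured ones, while the antibody-treated libraries overlapped both. The log2 fold change was 0.33 in injured against uninjured brain (95% interval 0.06 to 0.60, edgeR adjusted p = 0.06855) and 0.36 in antibody-treated against uninjured brain (95% interval 0.09 to 0.63, edgeR adjusted p = 0.08922). Antibody-treated against injured brain gave 0.03 (95% interval -0.24 to 0.30, edgeR adjusted p = 0.8957). Without antibody-treated replicate 3 the difference from uninjured brain passed at 0.44 (edgeR adjusted p = 0.0183), and without replicate 4 it was 0.24. With the trend of GC content and exon length removed, the difference of injured from uninjured brain was 0.05 (edgeR adjusted p = 0.654).

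B2m, the β2-microglobulin partner of FcRn and of MHC class I, averaged 169.5 ± 29.84 normalised CPM in antibody-treated, 108.2 ± 2.624 in injured and 94.59 ± 3.22 in uninjured brain (SD, n = 4 each). It rose in antibody-treated against uninjured brain (log2 fold change 0.84, SE 0.10, edgeR adjusted p = 0.0001231) and against injured brain (0.65, SE 0.10, edgeR adjusted p = 0.0009086). After removal of the GC and length trend the second of these no longer passed (0.14, edgeR adjusted p = 0.111). The injured group did not differ from the uninjured group beyond the threshold (0.19, edgeR adjusted p = 0.1623), although it passed in 4 of 13 other analyses, among them the removal of that trend (0.33, edgeR adjusted p = 0.00263). Albumin, the other ligand of FcRn, was at the limit of detection, with 2, 0 and 2 reads of Alb summed over antibody-treated, injured and uninjured libraries.

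Transcripts of the ligand, IgG, were high in antibody-treated brain. Ighg1, the IgG1 heavy chain, had 1138 exon reads summed over the 4 antibody-treated libraries, against 7 over the injured and 6 over the uninjured libraries. Igkc, the kappa light chain, had 1781, 40 and 27 reads. Of 13 listed immunoglobulin constant and joining chain genes 8 could be tested. In antibody-treated brain Ighm and Ighg2c passed against neither other group. The other 6 rose against uninjured (6.3% of all tested genes) and against injured brain (10.9%). These 6 passed the filter on low counts only through the groups where they were high: 5 reached its minimum in antibody-treated libraries alone, and Igkc also in 2 injured libraries. Genes admitted in this way had to differ, so the count is a description and supports nothing. The summed markers of muscle, of bone and skin and of neutrophils given above were highest in the same libraries, and their part in these values was not tested. Against uninjured brain the log2 fold change was 6.15 for Igkc (SE 0.20, edgeR adjusted p = 3.535e-10) and 7.58 for Ighg1 (SE 0.40, edgeR adjusted p = 4.053e-08). Between injured and uninjured brain none of the 8 passed in edgeR, 0 of them with an unadjusted p under 0.05, while Igkc passed with limma on TPM (0.50, limma adjusted p = 0.0366). The values are of transcripts and not of the antibody protein that mice were given. Of 8 listed markers of B cells and plasma cells, Sdc1 alone could be tested and did not pass (edgeR adjusted p = 0.7179 against uninjured and 0.2956 against injured brain).

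Of 22 listed kinases, adaptors and oxidase subunits downstream of the ITAM, all tested, 15 rose in antibody-treated against uninjured brain and none fell, with a median log2 fold change of 0.63 against 0.01 for all tested genes. Of all tested genes 6.3% rose and 3.22% fell there. In injured against uninjured brain 12 rose and none fell (median 0.46, against 0.03 for all tested genes), where 11.9% of all tested genes rose and 11% fell. The other 7 and 10, among them Syk in both comparisons, did not pass. In antibody-treated against injured brain 4 rose (Cybb, Lyn, Lcp2 and Rac2) and 1 fell, the phosphoinositide kinase subunit Pik3cd (log2 fold change -0.26, edgeR adjusted p = 0.0132). Of all tested genes 10.9% rose and 10.7% fell in that comparison. The median log2 fold change there was 0.18, against 0.01 for all tested genes. The list shares its cell types with the myeloid markers given above. Of these, the monocyte and border macrophage sums ranked antibody-treated over injured over uninjured, and the microglia sums overlapped between both groups with injury. Their part in these values was not tested.

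Among those with the smallest p, Fgr, a Src family kinase of myeloid cells, averaged 1.254 ± 0.2085 normalised CPM in antibody-treated, 0.8282 ± 0.1882 in injured and 0.2 ± 0.05489 in uninjured brain. Against uninjured brain its log2 fold change was 2.60 in antibody-treated (SE 0.29, edgeR adjusted p = 7.947e-05) and 2.01 in injured brain (SE 0.31, edgeR adjusted p = 0.001966), from 69, 54 and 12 reads in antibody-treated, injured and uninjured libraries. No uninjured library reached the minimum of the filter on low counts, so Fgr was tested only through the groups where it was high, and its difference from uninjured brain is a description. On the log2(TPM + 0.5) scale, which understates changes of scarce genes, these were 1.06 and 0.80. Cybb, the catalytic subunit of the phagocyte oxidase, rose in all 3 comparisons, at 5.606 ± 1.047 CPM in antibody-treated, 3.167 ± 0.5866 in injured and 1.617 ± 0.4202 in uninjured brain. Its log2 fold change between antibody-treated and injured brain was 0.83 (SE 0.19, edgeR adjusted p = 0.008346). Syk, the kinase that binds the phosphorylated ITAM, averaged 5.78 ± 0.7828, 5.275 ± 0.5471 and 4.796 ± 0.2429 CPM in these groups and passed in none (edgeR adjusted p from 0.1667 to 0.4493).

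Of 14 listed ITIM effectors and inhibitory receptors, 5 rose in antibody-treated against uninjured brain, 3 rose in injured against uninjured brain, and none fell in either, where 6.3% and 11.9% of all tested genes rose. Among the 5, Lilrb4a reached the minimum of the low-count filter in no uninjured library. It was tested only through the groups where it was high. Pirb reached that minimum in 1 uninjured library. In antibody-treated against injured brain 2 rose (Pirb and Cd300a) and 2 fell: Sirpa, a receptor also abundant in neurons (log2 fold change -0.15, edgeR adjusted p = 0.03905), and Inppl1, which encodes SHIP-2 (-0.44, edgeR adjusted p = 0.006394). With 10.9% of all tested genes higher and 10.7% lower in that comparison, these counts are near the share over all genes. The median log2 fold change of the list was 0.08, 0.16 and 0.01 in these comparisons, in the order given, against 0.01, 0.03 and 0.01 for all tested genes. Inpp5d, which encodes SHIP-1, the phosphatase that Fcgr2b recruits, averaged 17.31 ± 0.5668 CPM in antibody-treated, 17.84 ± 1.202 in injured and 16.54 ± 0.9342 in uninjured brain and passed in no comparison (edgeR adjusted p from 0.2723 to 0.7088). Ptpn6, the phosphatase SHP-1, rose in antibody-treated (log2 fold change 0.66, edgeR adjusted p = 0.01131) and injured brain (0.59, edgeR adjusted p = 0.01403) against uninjured brain. Dok3, also in that list, rose in the same comparisons (0.60 and 0.59, edgeR adjusted p = 0.03371 and 0.02159).

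Pirb, an inhibitory receptor for MHC class I, averaged 2.3 ± 0.301 CPM in antibody-treated, 1.438 ± 0.3979 in injured and 0.551 ± 0.1197 in uninjured brain. Its log2 fold change was 2.05 in antibody-treated (SE 0.24, edgeR adjusted p = 0.0001231) and 1.37 in injured brain (SE 0.26, edgeR adjusted p = 0.004978) against uninjured brain. The difference of antibody-treated from injured brain, 0.67 (edgeR adjusted p = 0.03279), was lost without injured replicate 1, 3 or 4 or antibody-treated replicate 2, with values from 0.55 to 0.70. It was also lost with reads matching a single place (0.62, edgeR adjusted p = 0.107), on the log2(TPM + 0.5) scale (0.39, limma adjusted p = 0.0633), with only the compared groups in the fit (0.67, edgeR adjusted p = 0.0634) and with junction reads (0.82, edgeR adjusted p = 0.179). Cd300a, an inhibitory receptor for phospholipids of dying cells, averaged 4.008 ± 0.2141, 2.594 ± 0.3285 and 2.198 ± 0.1378 CPM, and rose in antibody-treated brain against injured brain (0.63, SE 0.12, edgeR adjusted p = 0.003629) and uninjured brain (0.86, SE 0.13, edgeR adjusted p = 0.0006579). Both Cd300a calls were lost with junction reads (0.57 and 0.81, edgeR adjusted p = 0.238 and 0.136).

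**Figure D5:**
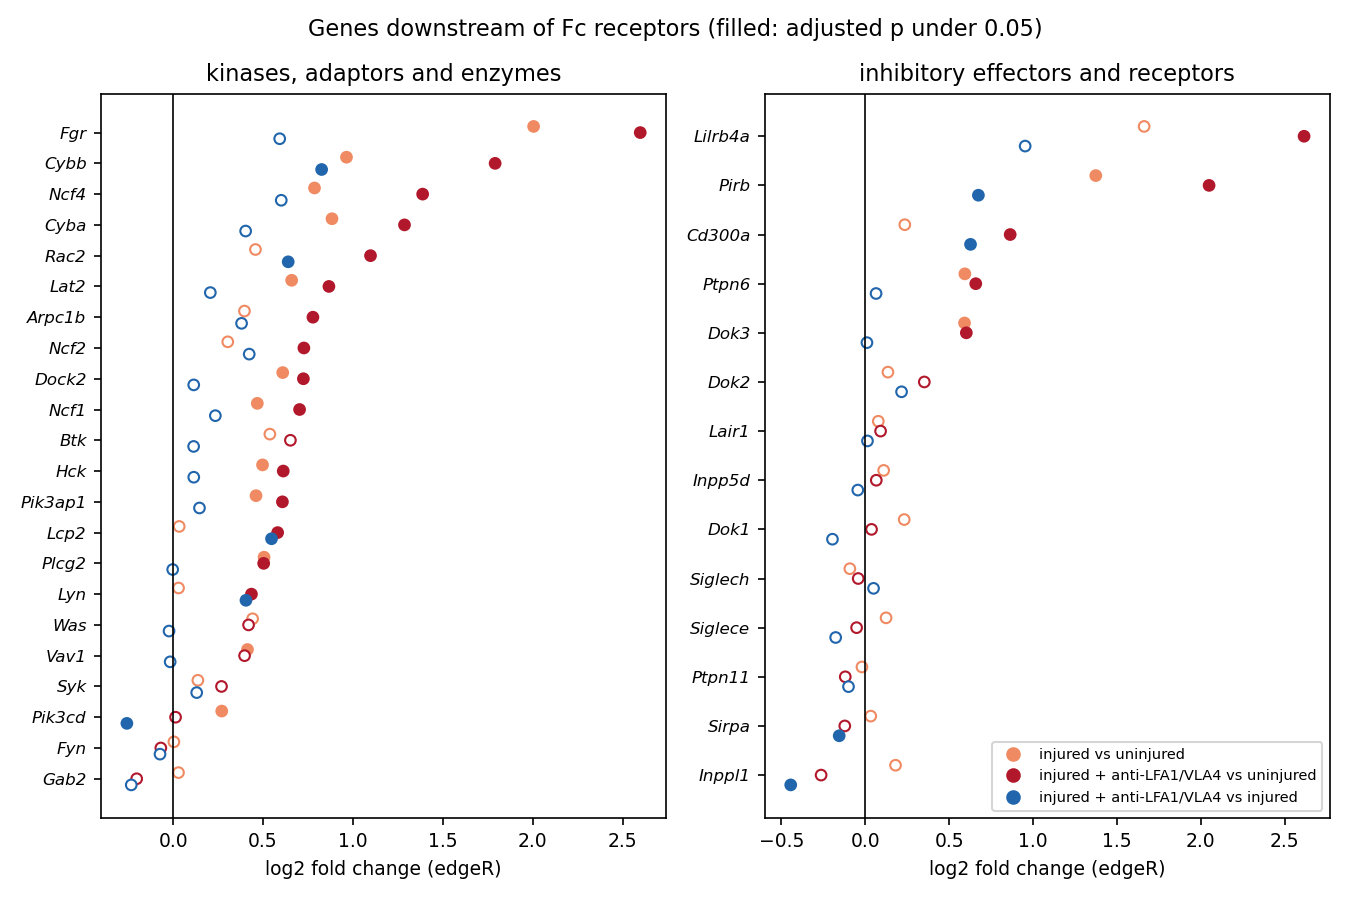
Log2 fold change (horizontal axis) of 22 genes downstream of the ITAM and 14 inhibitory genes in 3 comparisons, from the edgeR fit. Filled symbols mark an adjusted p under 0.05. Fgr, Pirb and Lilrb4a lie farthest to the right, and Syk and Inpp5d have no filled symbol. Fgr and Lilrb4a reached the minimum of the low-count filter in no uninjured library.

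Receptors that share the Fcer1g chain, or use the related chain Tyrobp, were mostly scarce. They were listed together with Tyrobp itself, and 7 of these 14 genes, Tyrobp among them, could be tested. Of these, 6 rose in antibody-treated against uninjured brain, 3 in injured against uninjured brain and 3 in antibody-treated against injured brain, with none lower. Of all tested genes 6.3%, 11.9% and 10.9% rose in these comparisons. Of the 7, 3 (Clec4d, Clec4n and Siglec1) reached the minimum of the filter in no uninjured library and were tested only through the groups where they were high. The 3 higher in antibody-treated against injured brain were the lectin receptors Clec4a3 (log2 fold change 1.20, edgeR adjusted p = 0.004856), Clec4d (1.68, edgeR adjusted p = 0.01118) and Clec4n (0.92, edgeR adjusted p = 0.04684). Clec4d and Clec4n are known to signal through Fcer1g. Trem2, a lipid-sensing receptor of microglia, averaged 34.37 ± 7.728 CPM in antibody-treated, 28.78 ± 1.521 in injured and 15.11 ± 1.789 in uninjured brain, and Tyrobp 37.8 ± 8.094, 29.47 ± 3.418 and 17.1 ± 2.029 CPM. Both rose in antibody-treated (log2 fold change 1.19 and 1.14, edgeR adjusted p = 0.0001231 and 0.0002287) and injured brain (0.93 and 0.79, edgeR adjusted p = 0.001866 and 0.005014) against uninjured brain. Neither passed between antibody-treated and injured brain (edgeR adjusted p = 0.1956 and 0.08728), but both did without antibody-treated replicate 3 (0.39 and 0.49, edgeR adjusted p = 0.0213 and 0.0092).

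Of 15 other immunoglobulin receptors, 6 could be tested and Fcrl5 and Fcamr had no read. The 2 that rose against uninjured brain, in both groups with injury, were Cd22 and Fcrls. Of all tested genes 6.3% rose in antibody-treated and 11.9% in injured against uninjured brain. Cd22, an inhibitory sialic acid receptor, averaged 2.325 ± 0.5187 CPM in antibody-treated, 1.577 ± 0.1545 in injured and 0.6172 ± 0.2307 in uninjured brain (log2 fold change 1.90 and 1.34 against uninjured, edgeR adjusted p = 0.0003447 and 0.006252). Fcrls, a scavenger-like Fc receptor homologue used as a microglia marker, averaged 46.42 ± 4.726, 43.97 ± 4.326 and 34.21 ± 2.661 CPM (0.44 and 0.36, edgeR adjusted p = 0.01026 and 0.01881). The Fcrls call in injured brain was lost without uninjured replicate 1 or 4 or injured replicate 2 or 4, at values from 0.32 to 0.34. None of the 6 passed in edgeR between antibody-treated and injured brain, where 1 of them, Cd22, had an unadjusted p under 0.05 and passed without antibody-treated replicate 2 (0.71, edgeR adjusted p = 0.0458).

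Among 12 genes that act with Fc receptors in phagocytosis, 7 rose in antibody-treated against uninjured, 6 in injured against uninjured and 4 in antibody-treated against injured brain (C3ar1, Itgb2, Cd68 and Ctss), with none lower. The share of all tested genes that rose was 6.3%, 11.9% and 10.9% in the same order. Cd68, a lysosomal membrane protein of phagocytes, averaged 25.78 ± 2.76 CPM in antibody-treated, 17.35 ± 1.614 in injured and 12.75 ± 1.448 in uninjured brain. It rose in antibody-treated brain against uninjured (log2 fold change 1.02, SE 0.11, edgeR adjusted p = 4.234e-05) and against injured brain (0.57, SE 0.10, edgeR adjusted p = 0.002556). The difference of injured from uninjured brain, 0.45 (edgeR adjusted p = 0.0143), was lost without injured replicate 4 (0.38, edgeR adjusted p = 0.0556) and after removal of the GC and length trend (0.20, edgeR adjusted p = 0.108). Ctss, the lysosomal protease cathepsin S, averaged 174.3 ± 18.54, 134.8 ± 16.71 and 93.12 ± 6.805 CPM and rose in all 3 comparisons. Its step between antibody-treated and injured brain, 0.37 (edgeR adjusted p = 0.01762), was lost without injured replicate 4 (0.34, edgeR adjusted p = 0.0504) or antibody-treated replicate 1 (0.33, edgeR adjusted p = 0.0547). It was also lost after removal of the GC and length trend (0.14, edgeR adjusted p = 0.0842), on the log2(TPM + 0.5) scale (0.22, limma adjusted p = 0.0507) and with junction reads (0.39, edgeR adjusted p = 0.157).

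The genes most like each member across the 12 libraries were found by Pearson's r of log2 CPM over 14031 genes. Libraries fall into 3 groups, so r is also given with group means removed, and both are descriptions. Nearest to Fcgr3 were the chemokine Cxcl16 (r = 0.983, or 0.839 with group means removed), the interferon-induced Oasl2 (0.979, or 0.763) and Ctss (0.978, or 0.802). Nearest to Fcer1g were Serpinf1 (0.99, or 0.901), Kctd10 (0.989, or 0.945) and Anxa2 (0.988, or 0.911). Fcgr2b was nearest to Mgst1 (0.964, or 0.783), Parp3 (0.954, or 0.644) and the macrophage protein Cd5l (0.953, or 0.336). Fcgr4 was nearest to Tnfaip2 (0.959, or 0.698), the MHC class I gene H2-Q6 (0.958, or 0.56) and the protease inhibitor Serpina3n (0.954, or 0.684). Fcgr1 was nearest to Creld2 (0.947, or 0.865), Clec2d (0.938, or 0.853) and Kdelr2 (0.931, or 0.853). Fcgrt was nearest to the ribosomal protein genes Rpl34 (0.974, or 0.956) and Rpl18 (0.972, or 0.957) and the polymerase subunit Polr2i (0.972, or 0.954). Within groups the closest pair of members was Fcer1g and Fcgrt (r = 0.926 over 12 libraries with group means removed).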

How the data were processed

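RNA of 12 brain samples, 4 mice per group, was sequenced after a stranded total RNA kit with 500 ng input, per the labels' protocols. Per the submitters' processing notes, Trimmomatic 0.39, FastQC 0.11.8 and CASAVA 1.8.2 were used, with the build GRCm38. The aligner is not given in the sources used here, nor is the read counter. The deposited values used are whole-number counts of total exon reads and the authors' TPM, which those counts and the exon lengths gave back in all 12 tables.

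Counts were tested with edgeR 4.0.16 (R 4.3.3): filterByExpr by group (14771 genes kept), TMM factors, a quasi-likelihood model with 1 term, the group, fitted to the 12 libraries (9 residual degrees of freedom), two-sided, Benjamini-Hochberg over all tested genes. Normalised CPM are counts scaled to the TMM-adjusted library size. Ratios used TPM and an exact permutation test over 70 splits. The code was tested on simulated data. The labels describe different mice as biological replicates, and every pair of libraries within a group differed by more than sampling noise (chi-square per gene 3.002 to 49.81). Counting error bounds precision: it alone gives a coefficient of variation per library of 48.51% for Fcgr4 in uninjured mice and 5.462% for Fcgr3 in antibody-treated mice.

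Besides the 6 genes, the text names the 2 genes of smallest p in each pathway list, members of a count of 5 or fewer, the proximal effectors Syk, Inpp5d and Ptpn6, and the 3 genes most like each member, passing over clone and predicted names. Members and lists were chosen with earlier results of these data known. Alternatives were DESeq2 1.42.0 size factors and Wald test, library size alone, 2 other low-count filters, limma 3.58.1 voom, limma on log2(TPM + 0.5), unique reads, compared groups only, a replicate block, a GC and length trend removed with mgcv 1.9.3, with and without that block, and each library left out. Counting only splice junction (exon-exon) reads was added after seeing the data.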

Additional observations from a re-analysis of the deposited data

Results flagged for a closer look

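In groups of 4, a library was singled out when its gap to the nearest other library, divided by the range of the group, exceeded 0.829. Chance singles out about 1 in 20 groups, and 57 groups were examined. Among the members this concerned only Fcgr2b. Its antibody-treated replicate 3 stood at 10.34 normalised CPM, below the others at 12.98 to 13.23, and its uninjured replicate 2 at 3.389 CPM, below the others at 5.234 to 5.378. Leaving out each library of the compared groups in turn kept every Fcgr2b call. Among the other named genes, Cybb was low in antibody-treated replicate 4 at 4.053 CPM (others 5.906 to 6.273) and Fcrls was low in antibody-treated replicate 3 at 39.42 CPM (others 48.02 to 49.76). Cd22 was high in injured replicate 3 at 1.807 CPM (others 1.479 to 1.528). Ighg1 was high in injured replicate 4 at 0.2367 CPM (others 0.06023 to 0.06368), a level of a few reads.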

How the results depend on the processing

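Fcgr2b and Fcer1g kept their direction and side of the threshold in all 3 comparisons without any single library and under 12 of 13 other analyses, the exception being junction reads. Of 230 values of the 6 genes under these analyses 213 kept theirs, as did 134 of 144 with a library left out. For injured against uninjured brain, higher genes numbered 3157 with library size alone, 4869 on log2(TPM + 0.5), 818 after removal of the GC and length trend and 653 with the replicate block added to that. Lower genes numbered 995, 334 and 1070 (library size, TPM, trend with block) and 2511 with the compared groups only. For antibody-treated against uninjured brain, lower genes numbered 201 (library size), 883 (DESeq2 Wald), 145 (TPM), 213 (replicate block), 2010 (trend), 1636 (trend with block) and 232 (compared groups). Against injured brain, higher genes numbered 664 (TPM), 1013 (trend with block) and 1058 (compared groups), and lower genes 3519 (TPM). Fcgr1 (0.41, TPM) and Fcgrt (0.41 with library size, 0.49 with TPM, 0.32 with compared groups) then passed in injured against uninjured brain. Fcgr1 missed in antibody-treated against uninjured brain with the compared groups only (0.67). Fcgr3 missed in antibody-treated against injured brain at 0.24 (library size), 0.12 (TPM), 0.27 (replicate block), 0.16 (trend), 0.16 (trend with block) and 0.26 (compared groups). The cause was not tested.

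From junction reads alone, 11954 genes could be tested, and calls were fewer: 48 higher and 18 lower genes for injured against uninjured, 257 and 45 for antibody-treated against uninjured, and 329 and 178 for antibody-treated against injured brain. The missed members were Fcgr3 (0.42), Fcgr2b (0.92) and Fcer1g (0.50) in injured against uninjured, Fcgr1 (0.73) in antibody-treated against uninjured, and Fcgr3 (0.32) and Fcgr2b (0.55) in antibody-treated against injured brain. Higher genes made up 72.7%, 85.1% and 64.9% of those calls. Fcgr4 had too few junction reads for a value.

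With each library left out, Fcgr3 ranged from 0.23 to 0.33 in antibody-treated against injured brain, Fcgr1 from 0.50 to 0.78 against uninjured and 0.22 to 0.48 against injured brain, Fcgr4 from 0.47 to 0.89 against injured and Fcgrt from 0.24 to 0.44 against uninjured brain. Higher and lower genes ranged from 640 to 2054 and 213 to 1915 (antibody-treated against uninjured), 1053 to 1957 and 837 to 1816 (against injured), and 685 to 1659 and 580 to 2162 (injured against uninjured). The highest counts for antibody-treated against uninjured brain came without antibody-treated replicate 3. A count moved by over 1.5 times without uninjured replicate 1, 2 or 4 or injured replicate 2, 3 or 4 (injured against uninjured), uninjured replicate 1, 2 or 4 or any antibody-treated replicate (antibody-treated against uninjured), and injured replicate 4 or antibody-treated replicate 2 (antibody-treated against injured). Higher genes made up 51.9% of calls for injured against uninjured brain, or 76.0% (library size), 93.6% (TPM) and 37.2% (trend). For antibody-treated mice they made up 66.2% against uninjured brain, or 86.3%, 87.3%, 36.6%, 76.2% (block) and 54.0% (DESeq2 Wald), and 50.5% against injured brain, or 15.9% (TPM). The median of all genes moved to 0.11 (library size) and 0.17 (TPM) for injured against uninjured and -0.14 (TPM) for antibody-treated against injured brain.

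Same-numbered libraries are different mice whose deviations correlated from -0.532 to 0.434, so the replicate block pairs no mice. It moved no other call of the 6 genes. Fcgr4 in injured against uninjured brain has no value with the compared groups only, being under the filter. With 17 reads in 4 uninjured libraries, the depth limits Fcgr4 to large differences.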
